A study of Mus musculus with 71 samples.

Results

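The genes described here are 10 mouse genes of the piRNA pathway and of germ cell RNA control: Piwil2, Ddx4, Mov10l1, Mael, Tdrd1, Tdrd5, Tdrd9, Tdrkh, Asz1 and Dazl. They are a list of named genes drawn up with earlier results of these data known, so how many of them changed is not independent evidence about the pathway. All 10 were found among the 24222 genes of the count tables. The RNA sequencing covered C57BL/6 mouse embryonic stem (ES) cells, grown on gelatin in 2i medium, from which polyA RNA was taken. There were 9 libraries in 3 groups of 3: an Ezh1/Ezh2 double knockout (dKO), an EZH2 rescue, which the series design gives as cells that express wild-type EZH2 again, and the wild type (WT). EZH1 and EZH2 are the alternative catalytic subunits of PRC2, the Polycomb complex that methylates lysine 27 of histone H3. The labels do not say how many clones stand behind the dKO and the rescue, nor how EZH2 was put back. The chromatin data used here are the Suz12 peaks of a wild-type line of another strain background, 129B6F1, SUZ12 being a core subunit of PRC2.

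The piRNA pathway protects the germ line from transposons. Small RNAs of the germ line, the piRNAs, guide PIWI proteins to transposon transcripts, which are cut, and in the fetal testis also to transposon copies, whose promoters are then methylated. The machinery is held together by Tudor-domain proteins, which bind methylated arginines of their partners, and by proteins on the outer face of mitochondria, where piRNA precursors are processed. In ES cells a number of genes of this pathway are known to be kept low by DNA methylation of their promoters. A variant Polycomb complex, PRC1.6, which reaches DNA through E2F6 and through MGA with MAX, is known to do so too. Neither was measured in the data used here.

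Because those PRC1.6 subunits recognise short DNA words, the promoters were read for them. RefSeq promoter sequences of the GRCm38.p6 assembly, each 300 bases long with 250 bases before the annotated start and 50 from the start on, were at hand for 9 of the 10 genes, and Piwil2 was not among them. The 5 promoters that hold the word CACGTG, the E-box bound by MAX dimers and its own reverse complement, are printed on the strand of the gene. Capitals mark that word and TCCCGC, the E2F core, which reads GCGGGA when it lies on the other strand. Ddx4 is on the minus strand at chr13:112652261-112652560, Mov10l1 on the plus strand at chr15:88982744-88983043, Mael on the minus strand at chr1:166238695-166238994, Tdrd1 on the plus strand at chr19:56825959-56826258 and Tdrd9 on the plus strand at chr12:111971309-111971608.
Ddx4: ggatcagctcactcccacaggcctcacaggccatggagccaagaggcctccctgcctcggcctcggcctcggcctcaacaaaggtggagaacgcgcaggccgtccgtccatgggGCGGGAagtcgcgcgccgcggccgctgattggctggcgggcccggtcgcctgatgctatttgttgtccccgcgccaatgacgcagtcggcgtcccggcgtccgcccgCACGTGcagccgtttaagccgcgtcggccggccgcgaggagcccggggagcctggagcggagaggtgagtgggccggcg
Mov10l1: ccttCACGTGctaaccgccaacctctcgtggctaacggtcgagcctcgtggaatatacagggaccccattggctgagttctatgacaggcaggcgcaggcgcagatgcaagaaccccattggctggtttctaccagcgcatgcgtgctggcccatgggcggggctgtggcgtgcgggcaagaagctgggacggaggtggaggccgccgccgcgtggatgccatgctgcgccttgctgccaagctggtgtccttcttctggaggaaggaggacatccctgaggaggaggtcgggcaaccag
Mael: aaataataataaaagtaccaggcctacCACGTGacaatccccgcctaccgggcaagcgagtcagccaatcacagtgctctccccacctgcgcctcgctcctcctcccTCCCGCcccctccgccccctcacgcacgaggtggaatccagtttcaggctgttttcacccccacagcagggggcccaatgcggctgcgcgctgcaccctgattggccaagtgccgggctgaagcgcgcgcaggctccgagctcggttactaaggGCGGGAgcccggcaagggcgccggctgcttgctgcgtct
Tdrd1: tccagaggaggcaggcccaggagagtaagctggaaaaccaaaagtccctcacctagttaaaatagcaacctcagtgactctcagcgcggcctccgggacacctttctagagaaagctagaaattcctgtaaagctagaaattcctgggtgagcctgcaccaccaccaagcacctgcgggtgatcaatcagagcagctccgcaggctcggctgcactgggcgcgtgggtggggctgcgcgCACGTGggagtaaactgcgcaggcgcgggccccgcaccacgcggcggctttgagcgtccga
Tdrd9: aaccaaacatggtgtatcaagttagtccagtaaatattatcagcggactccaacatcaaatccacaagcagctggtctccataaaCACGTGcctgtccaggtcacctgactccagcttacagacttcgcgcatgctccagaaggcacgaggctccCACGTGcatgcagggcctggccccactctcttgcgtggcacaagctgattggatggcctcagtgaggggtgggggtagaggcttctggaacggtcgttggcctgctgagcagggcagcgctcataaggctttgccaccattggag

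CACGTG thus lay in 5 of the 9 promoters, against 7.15% of the 32851 promoters of the whole table and 9.93% of the 14196 promoters of genes tested in the RNA libraries. Counted from the start as base 0, the word began at base -29 in Ddx4, -246 in Mov10l1, -223 in Mael and -11 in Tdrd1, and Tdrd9 held it at both -165 and -95. TCCCGC lay on either strand in 3 of the 9, Ddx4 at -136, Mael at -143 and 11, and Tdrd5 at -249, against 20.0% of all promoters and 34.8% of those of tested genes. Ddx4 and Mael held both words, as did 1.99% of all promoters and 3.68% of those of tested genes. Tdrkh, Asz1 and Dazl held neither. None of the 9 held TATAAA, the TATA box, which 13.6% of all promoters and 7.01% of those of tested genes hold on either strand, and 4 held TAACNG, the MYB core, against 23.3% of all promoters. No 2 of these words overlapped in the printed promoters. CpG dinucleotides numbered between 10 in Tdrd9 and 48 in Tdrd5, with a median of 24 over the 9 genes, against a median of 7 over all promoters and 20 over those of tested genes. Tdrd1 has 3 annotated starts, of which the first was used. The second window overlaps the first and holds the same E-box match, and the third holds no E-box but has TATAAA at base 37. The shares over all promoters and those of tested genes count every annotated start, not only the first of each gene. A match describes the letters in the window and is not a measured binding site.

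**Figure D1:**
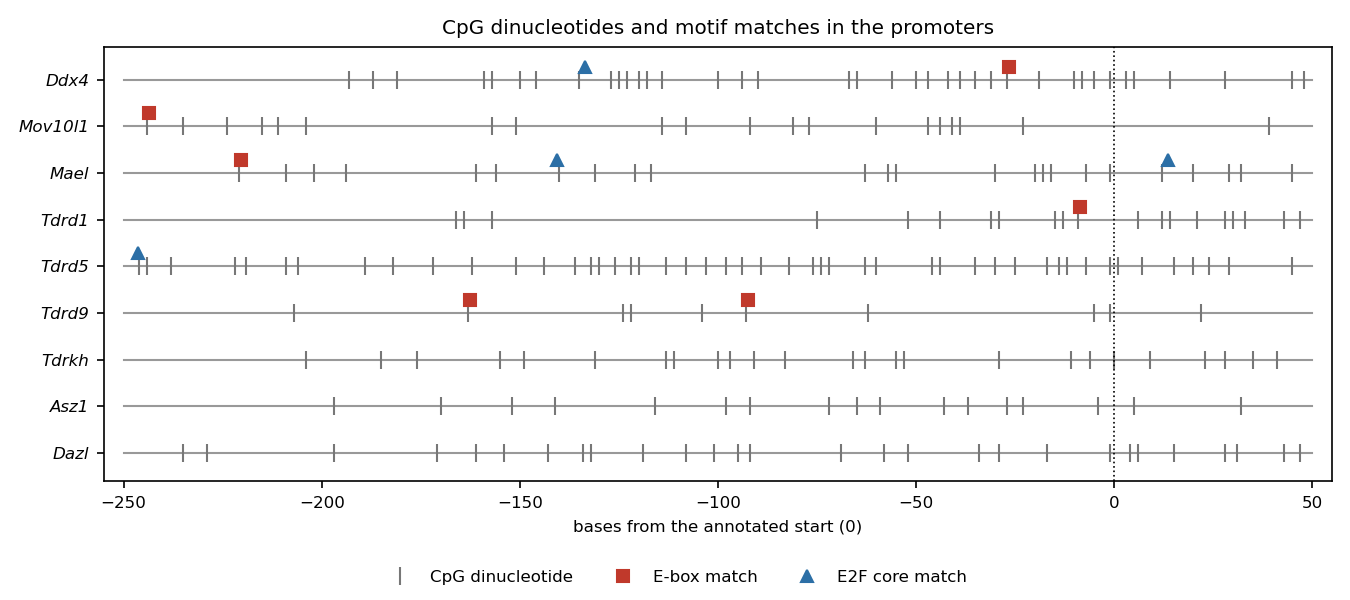
CpG dinucleotides and motif matches in the promoters of the 9 genes with a promoter sequence, by bases from the annotated start (x axis), 1 gene a line. Grey ticks are CpG dinucleotides, red squares E-box matches (5 of 9 promoters) and blue triangles E2F core matches (3 of 9), and the matches begin between base -249 and base 11.

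The libraries held between 12457622 and 36009529 counts, dKO replicate 1 being the shallowest and rescue replicate 1 the deepest. Levels are CPM, counts scaled to a common library size after TMM (trimmed mean of M values) adjustment, and a count of 0 allows up to 0.241 CPM in the shallowest library. Ezh1 read 1.99 ± 0.30 CPM in dKO, 2.88 ± 0.54 in rescue and 49.9 ± 3.0 in WT (SD, n = 3 each). Ezh2 read 199.0 ± 13.4 CPM in dKO, 560.0 ± 14.1 in rescue and 310.4 ± 3.0 in WT, and was higher in rescue than in either of the others. In dKO against WT the log2 fold changes were -4.68 for Ezh1 and -0.64 for Ezh2, so Ezh2 RNA in dKO was still 0.642 of its WT level. The labels do not say which part of Ezh2 was deleted, and the counts per gene therefore check the Ezh1 label but do not by themselves show the loss of Ezh2. The 8 ES cell markers summed to 5721 to 5903 CPM in dKO, 7769 to 7937 in rescue and 6288 to 6431 in WT. Lengths of transcripts were not used, so levels are compared between groups for 1 gene and never between genes.

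All 10 genes rose in dKO cells against WT cells. The fitted log2 fold changes ran from 0.83 for Dazl, an RNA-binding protein that controls translation in germ cells, to 3.86 for Tdrd1, the Tudor-domain partner of PIWI proteins, with a median of 2.39. Every dKO library was above every WT library for all 10 genes, and their summed level was 314.3 to 398.1 CPM in the dKO libraries and 100.1 to 114.5 CPM in the WT libraries. Calls rest on edgeR's quasi-likelihood test across all 14145 tested genes, two-sided, at a Benjamini-Hochberg adjusted p under 0.05, and the 10 genes all passed the filter on low counts. In that comparison 33.7% of all tested genes were called higher in dKO, 68.0% had groups that did not overlap, and the median over all tested genes was -0.003. In such bulk libraries a larger share of cells that express a gene and more RNA per cell cannot be told apart.

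**Figure D2:**
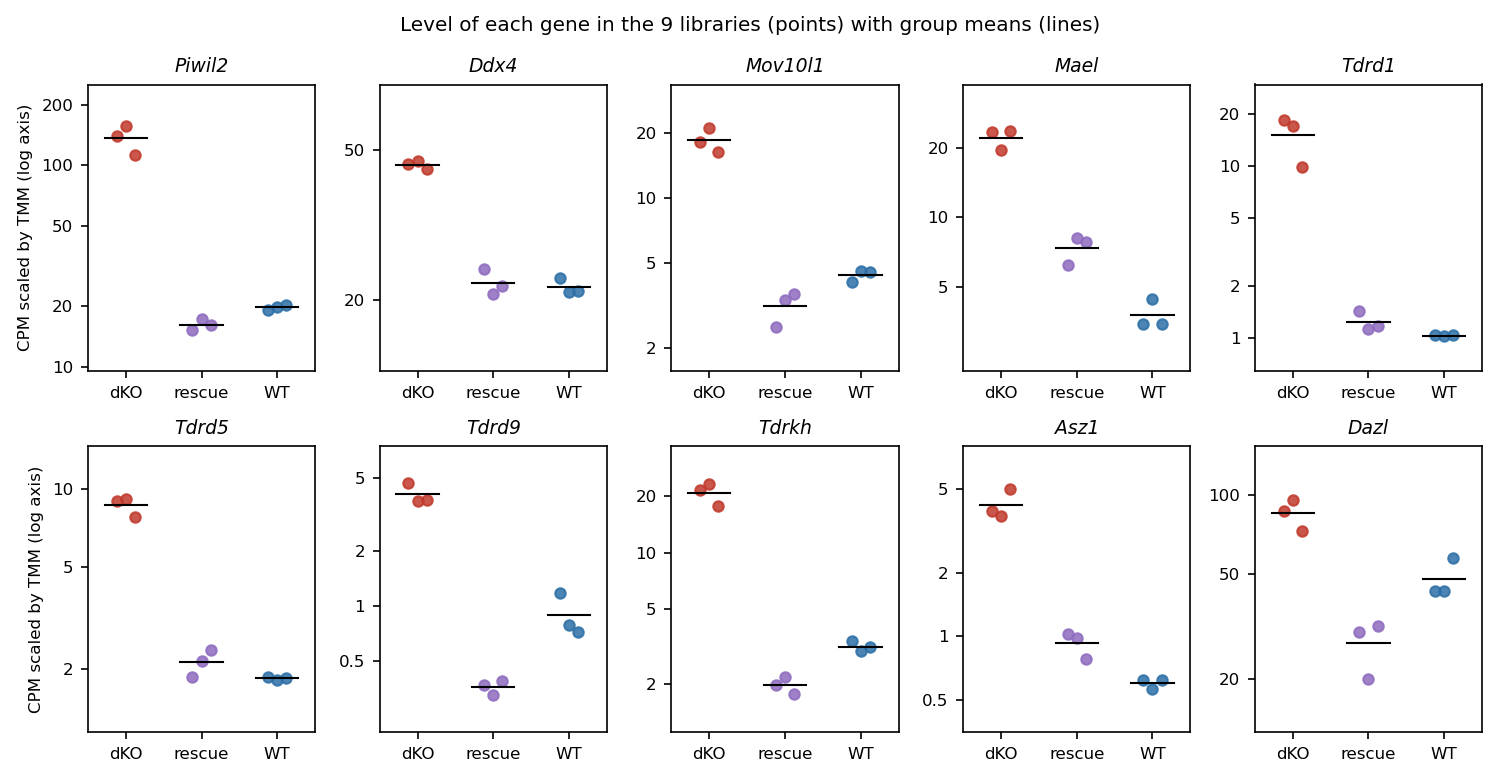
Level of each of the 10 genes in the 9 libraries, in CPM scaled by TMM on a log axis that differs between panels, with points for libraries and black lines for group means. In every panel the dKO points, such as 112.8 to 157.6 CPM for Piwil2, lie above all rescue and WT points. Rescue points lie below WT points for some genes (Tdrd9, Dazl), above them for others (Mael), and on both sides of them for Ddx4. For Tdrd5 the lowest rescue point (1.858 CPM) lies within the WT points (1.818 to 1.859) and the others lie above.

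Among the effectors, Piwil2 encodes a PIWI protein that binds piRNAs and cuts transposon transcripts. It had 139.5, 157.6 and 112.8 CPM in the dKO libraries, against 19.14, 19.96 and 20.32 CPM in the WT libraries. The WT libraries lay within about 1 CPM of each other, and even the lowest dKO library stood far above them. The log2 fold change was 2.78 ± 0.11 (SE), a 6.89-fold difference with adjusted p = 2.19e-09. Mov10l1, the RNA helicase that binds piRNA precursors and feeds them into processing, had 18.2, 21.1 and 16.4 CPM in dKO against 4.06, 4.57 and 4.54 CPM in WT. Its groups were again apart, by a log2 fold change of 2.08 ± 0.15 (adjusted p = 2.09e-07). Mael encodes Maelstrom, a protein of the germ granules that transposon silencing needs. It had 23.4, 19.6 and 23.6 CPM in dKO libraries, against 3.44, 4.43 and 3.46 CPM in WT libraries. That is a log2 fold change of 2.54 ± 0.15 (adjusted p = 4.13e-08), and the spread within each group was small beside the gap. Ddx4, the mouse VASA helicase and a standard marker of germ cells, had 46.0, 46.7 and 44.4 CPM in dKO against 22.9, 20.9 and 21.1 CPM in WT. The difference was 2.11-fold (log2 fold change 1.08 ± 0.08, adjusted p = 2.28e-07), small among the 10 genes but with little spread between libraries.

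The Tudor-domain genes and the mitochondrial scaffolds rose as well. Tdrd1, whose product gathers PIWI proteins in germ granules, had 18.6, 17.2 and 9.82 CPM in dKO libraries, against 1.03 CPM in each of the 3 WT libraries. Replicate 3 of dKO was clearly below the other dKO libraries and still above all WT libraries. The log2 fold change of Tdrd1 was 3.86 ± 0.27 (adjusted p = 1.56e-07), the largest of the 10 genes in this comparison, and was 4.10 without dKO replicate 3. Tdrd5, a Tudor protein with LOTUS domains that acts on piRNA precursors in the testis, had 9.04, 9.22 and 7.83 CPM in dKO against 1.86, 1.82 and 1.86 CPM in WT. This was a log2 fold change of 2.23 ± 0.15 (adjusted p = 1.31e-07). Tdrd9 encodes a Tudor helicase that works with the nuclear PIWI protein PIWIL4. It had 4.67, 3.75 and 3.79 CPM in dKO libraries, against 1.17, 0.793 and 0.722 CPM in WT libraries. The log2 fold change was 2.20 ± 0.22 (adjusted p = 3.09e-06), and WT replicate 1 was the highest of the WT libraries. Tdrkh, also known as Tdrd2, anchors PIWI proteins at mitochondria for the trimming of piRNAs. It had 21.4, 23.0 and 17.8 CPM in dKO against 3.37, 2.98 and 3.15 CPM in WT, a log2 fold change of 2.71 ± 0.14 (adjusted p = 1.20e-08). Asz1, also known as Gasz, encodes an ankyrin-repeat protein on the mitochondrial outer membrane that gathers the processing factors. It was low in all groups, with 3.92, 3.71 and 4.99 CPM in dKO libraries and 0.620, 0.560 and 0.619 CPM in WT libraries. The log2 fold change of Asz1 was 2.82 ± 0.23 (adjusted p = 5.17e-07), with no overlap of the groups.

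Dazl binds germ cell messenger RNAs and promotes their translation, and it had the smallest difference between dKO and WT. It had 87.3, 96.3 and 72.8 CPM in dKO libraries, against 43.2, 43.0 and 57.7 CPM in WT libraries. WT replicate 3 came nearest to the dKO libraries without reaching them. The 1.78-fold difference (log2 fold change 0.83 ± 0.17, adjusted p = 0.00117) still passed the test. Ddx4 and Dazl, which are used as markers of established germ cells, thus had the smallest fold changes of the set, and the other 8 genes changed by log2 fold changes of 2.08 to 3.86.

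All 10 genes fell in rescue cells against dKO cells. The log2 fold changes ran from -1.04 for Ddx4 to -3.57 for Tdrd1 with a median of -2.37, and the summed level of the 10 genes was 76.3 to 87.4 CPM in the rescue libraries. Every rescue library was below every dKO library for all 10 genes. The background in this comparison was high: 38.2% of tested genes were called lower in rescue, 71.7% had groups that did not overlap, and the median over all tested genes was -0.044. Both comparisons use the same dKO libraries, so a gene high in those libraries moves in opposite directions in the 2 comparisons, and the pair of counts is not 2 separate observations.

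Gene by gene, Piwil2 had 15.3, 17.3 and 16.2 CPM in the rescue libraries and averaged 136.7 ± 22.5 CPM in dKO (SD, n = 3), a log2 fold change of -3.07 ± 0.11 (SE, adjusted p = 1.05e-09). Mov10l1 had 2.52, 3.36 and 3.59 CPM in rescue libraries and averaged 18.6 ± 2.4 CPM in dKO. Its log2 fold change was -2.58 ± 0.15 (adjusted p = 3.05e-08). Mael, at 6.20, 8.17 and 7.78 CPM in rescue and 22.2 ± 2.3 CPM on average in dKO, changed by -1.60 ± 0.13. Rescue replicate 1 was the lowest of the 3 for both of these genes. Ddx4 had 24.1, 20.7 and 21.7 CPM in rescue libraries and averaged 45.7 ± 1.2 CPM in dKO.

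Tdrd1 had 1.43, 1.12 and 1.17 CPM in rescue and averaged 15.2 ± 4.7 CPM in dKO, an 11.9-fold difference and the largest of the set (log2 fold change -3.57 ± 0.24, adjusted p = 1.25e-07). Tdrd5 had 1.86, 2.15 and 2.38 CPM in rescue libraries and averaged 8.69 ± 0.76 CPM in dKO. Tdrd9 had 0.372, 0.327 and 0.389 CPM in rescue libraries and averaged 4.07 ± 0.52 CPM in dKO, a 10.9-fold difference (adjusted p = 1.21e-07). Tdrkh had 1.97, 2.20 and 1.77 CPM in rescue libraries and averaged 20.7 ± 2.7 CPM in dKO (log2 fold change -3.39 ± 0.14, adjusted p = 2.31e-09). These Tudor genes, Tdrd1, Tdrd9 and Tdrkh, had the 3 largest changes of the 10 genes in this comparison. Asz1 had 1.03, 0.981 and 0.778 CPM in rescue libraries and averaged 4.21 ± 0.69 CPM in dKO. Dazl had 30.2, 20.0 and 31.7 CPM in rescue libraries and averaged 85.4 ± 11.8 CPM in dKO, with rescue replicate 2 below the other rescue libraries.

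In rescue cells against WT cells the 10 genes no longer moved one way. Here 4 of the 10 genes were lower in rescue (Mov10l1, Tdrd9, Tdrkh and Dazl), 1 was higher (Mael) and 5 did not pass the test (median over the 10 genes -0.13, log2). Of all tested genes, 27.3% were called lower and 26.8% higher in rescue, so the share of the 10 genes that passed was near that of the whole table. Groups did not overlap for 8 of the 10 genes, Ddx4 and Tdrd5 being the exceptions, against 65.3% of all tested genes.

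Dazl was below WT in every rescue library and averaged 27.3 ± 6.38 CPM in rescue and 47.97 ± 8.43 CPM in WT (log2 fold change -0.81 ± 0.17, adjusted p = 0.00232). Tdrd9 averaged 0.363 ± 0.032 CPM in rescue and 0.895 ± 0.241 CPM in WT, a log2 fold change of -1.25 ± 0.30 (adjusted p = 0.00364). Mov10l1 averaged 3.16 ± 0.57 CPM in rescue and 4.39 ± 0.28 CPM in WT (log2 fold change -0.50 ± 0.17, adjusted p = 0.0229). The call for Mov10l1 was lost without rescue replicate 1 (adjusted p = 0.114), without WT replicate 2 (0.0745) and without WT replicate 3 (0.0672). Mael went the other way, with 7.39 ± 1.04 CPM in rescue and 3.78 ± 0.57 CPM in WT, a log2 fold change of 0.94 ± 0.16 (adjusted p = 0.00034). It was the single member at an intermediate level in rescue whose difference from both other groups passed the test.

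The 5 genes that did not pass differed in how closely they were bounded. Ddx4 had a rescue over WT log2 fold change of 0.04 with a 95% interval from -0.15 to 0.23 (adjusted p = 0.696). The intervals were wider for Tdrd5, at 0.19 from -0.22 to 0.61, and for Tdrd1, at 0.29 from -0.54 to 1.11. Asz1 had 0.65 with an interval up to 1.30 and adjusted p = 0.0561, and its 3 rescue libraries were above its 3 WT libraries. Piwil2 had -0.29 with an interval from -0.57 to -0.01 and adjusted p = 0.0523, its rescue libraries all being below its WT libraries. The calls of these last 2 depend on the setting: Piwil2 passed with no filter on low counts (adjusted p = 0.0476), with the replicate numbers as a block (0.0368) and in a fit of rescue and WT alone (0.00472), and Asz1 passed in that last fit (0.0446) and without rescue replicate 3 (0.048).

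Piwil2 and Tdrkh lie on chromosomes that were low as a whole in the rescue libraries. The median rescue over WT log2 fold change was -0.84 over the 465 tested genes of chromosome 14, which holds Piwil2 (chr14:70372477-70436898), and -0.41 over the 651 of chromosome 3, which holds Tdrkh (chr3:94413243-94434854). Against dKO the rescue medians were -0.79 on chromosome 14 and -0.43 on chromosome 3. The 65 tested genes within 5 Mb of Piwil2 had a median of -0.80 against WT, and the 130 within 5 Mb of Tdrkh -0.40. The other members' chromosomes had medians between -0.02 and 0.05 in rescue against WT. Tdrkh averaged 1.98 ± 0.21 CPM in rescue and 3.17 ± 0.20 CPM in WT, a log2 fold change of -0.67 ± 0.16 (adjusted p = 0.00429). After subtraction of its chromosome's median, Piwil2 was at 0.55 in rescue against WT and at -2.29 in rescue against dKO. Tdrkh after the same subtraction was at -0.27 in rescue against WT. The part of these chromosomes in the differences of Piwil2 and Tdrkh was not tested further. In dKO against WT no member's chromosome had a median beyond 0.1 on either side. These are group medians, and medians for single libraries were not computed. In dKO replicates 1, 2 and 3, Setdb1 of chromosome 3 read 228.1, 230.7 and 119.2 CPM, and Rec8 of chromosome 14 read 67.05, 68.14 and 32.54. Among other listed genes of chromosome 3, Sox2 (568.8, 570.2 and 386.2 CPM), Sohlh2, Wdr77, Sycp1, Hormad1 and Rbm46 were also lowest in dKO replicate 3. Rnf17, Prmt5 (294.5, 280.1 and 204.3 CPM) and Gata4 of chromosome 14 were too. Lhx8 of chromosome 3, under 1 CPM, was lowest in dKO replicate 2. Sox7, also on chromosome 14, went the other way at 6.027, 4.864 and 10.7 CPM. These genes were picked after their values were seen. Piwil2 and Tdrkh were also lowest in dKO replicate 3, and the part of their chromosomes in that was not tested.

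**Figure D3:**
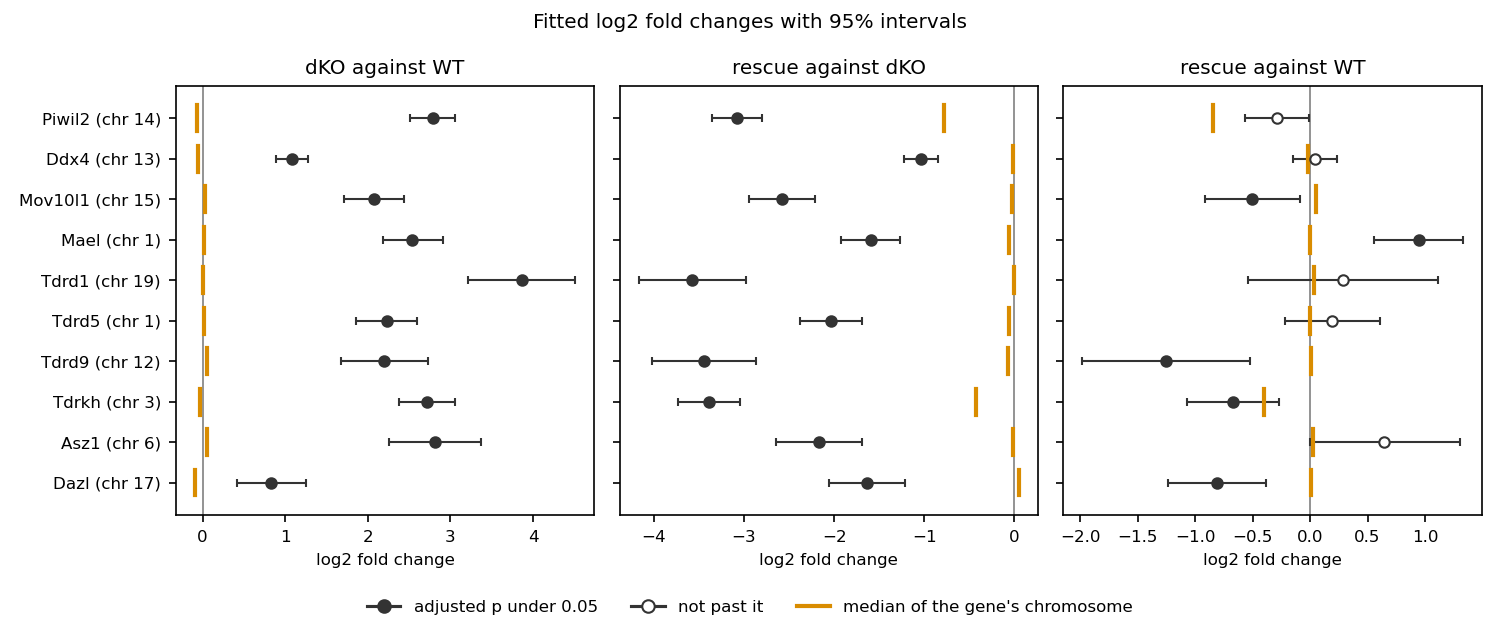
Fitted log2 fold changes (x axis) of the 10 genes in the 3 comparisons, with 95% intervals; filled points passed an adjusted p under 0.05, and the orange bar is the median of all tested genes on the same chromosome. All 10 points lie above 0 in dKO against WT and below 0 in rescue against dKO, whereas in rescue against WT they scatter around 0, from -1.25 for Tdrd9 to 0.94 for Mael, and the chromosome bars of Piwil2 and Tdrkh sit at -0.84 and -0.41.

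In wild-type 129B6F1 cells, a Suz12 peak lay over the start given in the promoter table for 4 of the 10 genes. Ddx4 had the widest, at chr13:112650841-112653164 (2324 bases), which takes in the whole printed promoter. Tdrd5, on the minus strand at chr1:156255296-156304304, had a peak at chr1:156302699-156303899 (1201 bases). Its start here is that of the promoter table, whose window (chr1:156303299-156303598) lies inside the peak, whereas the outer end of the gene in the gene table lies outside it. Mael had one of 529 bases at chr1:166238387-166238915 and Tdrd1 one of 548 bases at chr19:56825942-56826489. The nearest peak was 13.7 kb away for Tdrkh, 20.3 kb for Piwil2, 27.8 kb for Mov10l1, 60.8 kb for Asz1, 61.9 kb for Tdrd9 and 102.8 kb for Dazl. For Piwil2, whose strand was not at hand, the distance is to the nearer end of the gene. Of the 14102 tested genes with a position, 26.8% had a peak within 1 kb of their start, and their median dKO over WT log2 fold change was 0.59, against -0.10 for the 10324 without one. The 4 members with a peak had log2 fold changes of 1.08 (Ddx4), 2.23 (Tdrd5), 2.54 (Mael) and 3.86 (Tdrd1), and the 6 without ran from 0.83 (Dazl) to 2.82 (Asz1), so genes with and without a peak were interleaved. The peaks were called in another strain, and their heights are not known.

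Other genes of the pathway did not move as a block. Of 22 listed, 20 were tested, and in dKO against WT 9 rose and 5 fell, while 6 stayed short of the threshold (median log2 fold change 0.04). Of all tested genes, 33.7% were called higher and 31.0% lower in that comparison. Dnmt3l, the cofactor of de novo DNA methylation in germ cells, had the largest change at 4.01 ± 0.08 (SE) and averaged 277.4 ± 9.7 CPM in dKO, 211.9 ± 16.8 in rescue and 17.2 ± 1.3 in WT (SD, n = 3 each). Dnmt3l was thus still high in rescue, with a rescue over WT log2 fold change of 3.62 (adjusted p = 2.13e-10). Fkbp6, a co-chaperone of PIWI proteins, averaged 180.8 ± 23.5 CPM in dKO and 47.2 ± 3.5 CPM in WT, a log2 fold change of 1.94. Tex15, which works with PIWIL4 in silencing transposons, averaged 82.2 ± 8.9 CPM in dKO and 28.2 ± 1.7 CPM in WT. Morc1, an ATPase that represses transposons in male germ cells, fell to 102.9 ± 10.3 CPM in dKO, against 218.5 ± 13.2 CPM in WT. Pld6, the mitochondrial enzyme that is needed to cut piRNA precursors, had a log2 fold change of -0.34 and did not pass (adjusted p = 0.0553).

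In rescue against dKO, 13 of those 20 genes fell, 2 rose and 5 were not called (median -0.63). Over all tested genes 38.2% were called lower and 32.1% higher there. The 13 include Rnf17 at -0.74 and Prmt5 at -0.49 on chromosome 14, whose median was -0.79. Henmt1, at -1.38, lies on chromosome 3, whose median was -0.43. Fkbp6 fell to 45.7 ± 0.9 CPM in rescue, and Tdrd7, a Tudor protein of germ granules, fell to 1.12 ± 0.28 CPM in rescue, against 6.35 ± 0.75 CPM in dKO. Tex15 fell by 0.78 on the log2 scale and Morc1 rose by 0.92. The trimming exonuclease gene Pnldc1 had -0.21 and did not pass. In rescue against WT, 4 were higher, 6 lower and 10 did not pass, with a median of -0.11, beside 26.8% higher and 27.3% lower over all tested genes. Rnf17, a Tudor and RING finger protein of germ granules, averaged 105.1 ± 2.5 CPM in rescue and 305.3 ± 3.2 CPM in WT, and it lies on chromosome 14, whose median was -0.84. Prmt5, on the same chromosome and also called lower, was at -0.80 on the log2 scale. Gtsf1, a cofactor of PIWI cutting, averaged 2.35 ± 0.05 CPM in rescue and 6.14 ± 0.18 CPM in WT, and Tdrd12 was at -0.69 on the log2 scale. The nuclear PIWI gene Piwil4 was under 1 CPM on average in every group and did not pass in this comparison.

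The list of other germ cell RNA regulators was mixed too. The shares over all tested genes given above for each comparison apply here and to the lists that follow. Of 18 tested among 20 listed, 9 rose, 6 fell and 3 stayed short of the threshold in dKO against WT (median 0.50), and with total counts in place of TMM 11 rose and 3 fell. Ddx25, a testis RNA helicase, averaged 8.63 ± 0.78 CPM in dKO and 1.49 ± 0.11 CPM in WT. Meioc, the partner of YTHDC2 in meiotic entry, is named Gm1564 in the count tables, where it averaged 32.2 ± 1.1 CPM in dKO and 8.31 ± 1.38 CPM in WT. Cpeb1, which binds the cytoplasmic polyadenylation element, averaged 23.6 ± 1.8 CPM in dKO and 8.32 ± 0.57 CPM in WT. Patl2, an oocyte RNA-binding protein, fell to 9.82 ± 0.37 CPM in dKO, against 19.7 ± 0.5 CPM in WT. Tex19.1, which restrains transposons in germ and stem cells, had 0.40 and did not pass.

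In rescue against dKO, 8 of these 18 fell, 7 rose and 3 were not called (median -0.11). Rbm46, a germ cell RNA-binding protein, fell to 0.370 ± 0.175 CPM in rescue, against 4.08 ± 0.57 CPM in dKO, and lies on chromosome 3, whose median was -0.43. Tex19.2 fell to 3.56 ± 0.19 CPM in rescue, against 11.4 ± 2.9 CPM in dKO, while Cpeb1 and Ddx25 fell by 1.37 and 1.27 on the log2 scale. Boll, of the same family as Dazl, had -0.21 and did not pass. In rescue against WT, 4 were higher, 2 were lower and 12 did not pass, with a median of 0.10. Higher in rescue were Gm1564 at 1.08, Ddx25 at 1.26, Tex19.1 at 1.32 and Nanos1, a translational repressor of germ cells, at 0.50. Adad1 had -1.14 at levels under 1 CPM and did not pass.

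Germ cell transcription factors and markers did not follow the 10 genes as a group. Of 13 tested among 16 listed, 6 rose, 4 fell and 3 stayed short of the threshold in dKO against WT (median 0.06). Sohlh2, a helix-loop-helix factor of early spermatogonia and oocytes, averaged 222.1 ± 50.8 CPM in dKO and 88.5 ± 3.6 CPM in WT. Prdm14, a regulator of naive pluripotency and of primordial germ cells, had 0.66. Prdm1, which starts the primordial germ cell program, fell to 15.95 ± 1.59 CPM in dKO, against 39.6 ± 1.6 CPM in WT, and Kit, a receptor of germ cells, fell by 0.58 on the log2 scale. Taf7l had -0.13 and did not pass. In rescue against dKO, 9 fell, 3 rose and 1, Zbtb16 at -0.84, did not pass. Stra8, the retinoic acid target of meiotic entry, fell to 1.39 ± 0.58 CPM in rescue, against 10.5 ± 3.3 CPM in dKO, and Sohlh2, on chromosome 3, fell by 2.03 on the log2 scale. In rescue against WT, 7 were lower, 3 higher and 3 did not pass. Prdm1 was at -1.86, Dppa3, a maternal factor and germ cell marker, at -1.43, Tfap2c at -0.94 and Prdm14 at 0.40. Lhx8 had 2.01 at levels under 1 CPM and did not pass.

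Genes known to keep germ cell genes silent in ES cells made up the last list. Of 19 tested, 13 fell, 3 rose and 3 stayed short of the threshold in dKO against WT (median -0.26), and with total counts in place of TMM 7 fell and 3 rose. In that comparison 31.0% of all tested genes were called lower. Uhrf1, which brings the maintenance DNA methyltransferase to replicated DNA, fell to 427.2 ± 74.8 CPM in dKO, against 740.1 ± 7.4 CPM in WT. The PRC1.6 subunits L3mbtl2 and Pcgf6 fell by 0.55 and 0.47 on the log2 scale. Of other genes of that complex, Mga fell by 0.69, Max had -0.10 and was not called, and E2f6 (0.41) and Yaf2 (1.31) were among the 3 genes of the list that rose, along with the DNA methyltransferase gene Dnmt3b (0.47). Of these, E2f6, Yaf2, Dnmt3b, Max and Mga were named after their values in this comparison were seen. Atf7ip, a partner of the H3K9 methyltransferase SETDB1, fell by 0.67. Ring1 had 0.15 and did not pass. In rescue against dKO, 10 rose, 4 fell and 5 did not pass, or 9 rose and 7 fell with total counts in place of TMM. With TMM, 32.1% of all tested genes were called higher there and 38.2% lower. L3mbtl2 rose to 241.9 ± 2.2 CPM in rescue, against 127.0 ± 6.1 CPM in dKO, with Atf7ip, Pcgf6 and Kdm1a at 0.74, 0.63 and 0.41. Setdb1, on chromosome 3, averaged 142.7 ± 2.2 CPM in rescue and 192.7 ± 63.7 CPM in dKO and did not pass. In rescue against WT, 5 were higher, 5 lower and 9 did not pass. E2f6 was at 0.47, L3mbtl2 at 0.38, Dnmt3a at -0.74, Ehmt1 at -0.40 and Yaf2, which did not pass, at 0.37. Setdb1, named here after its value was seen, was also called lower, at -0.93, and the median of chromosome 3 was -0.41. It was among the 13 that fell in dKO against WT, at -0.50 with adjusted p = 0.0496.

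**Figure D4:**
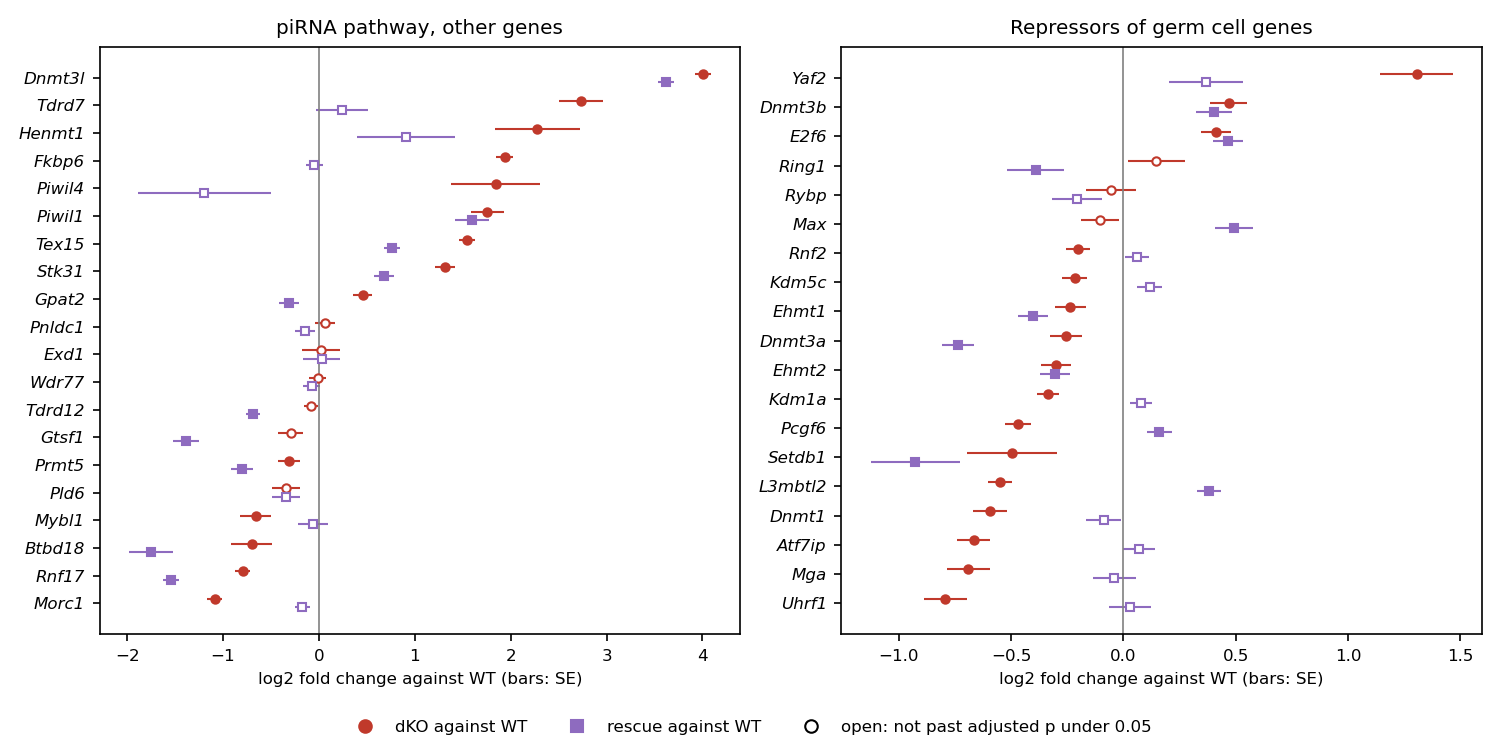
Log2 fold changes against WT, with SE bars, of the tested genes among the other piRNA pathway genes (left, 20 genes) and the repressors of germ cell genes (right, 19 genes); red circles are dKO and purple squares rescue, filled where an adjusted p under 0.05 was reached. On the left 9 dKO values rose and 5 fell, with Dnmt3l high in both dKO (4.01) and rescue (3.62), and on the right 13 of 19 dKO values fell.

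Among marker lists of other cell types with tested genes, only the spermatocyte list moved both ways in dKO against WT. Of all tested genes, 33.7% were called higher in that comparison and 38.2% lower in rescue against dKO. Of the spermatocyte markers 9 of 10 were tested, and in dKO against WT 6 rose, 2 fell (Sycp3 at -1.23 and Dmc1 at -0.34) and 1 was not called, while in rescue against dKO 8 fell and Sycp3 was not called. The list summed to 266.9 to 358.6 CPM in dKO, 98.1 to 101.8 in rescue and 186.7 to 191.3 in WT. In rescue against WT 6 of the list were lower, 1 was higher (Syce1 at 1.44) and 2 did not pass. Over all tested genes 27.3% were called lower and 26.8% higher there. Some of the lower genes lie on the chromosomes that were low in rescue. Rec8 on chromosome 14 averaged 11.3 ± 0.9 CPM in rescue and 39.4 ± 3.3 CPM in WT. On chromosome 3 Hormad1 averaged 9.64 ± 0.73 CPM in rescue and 37.8 ± 2.2 CPM in WT, and Sycp1 3.48 ± 0.49 CPM in rescue and 7.44 ± 0.74 CPM in WT. The others, Smc1b (-1.51) and Dmc1 (-1.09) on chromosome 15 and Sycp3 (-1.39) on chromosome 10, lie on chromosomes with medians of 0.05. Markers named in this paragraph were picked after their values were seen. None of the 8 markers of late spermatogenic cells passed the filter on low counts, and they were near 0 throughout: the list summed to 0.200 to 0.377 CPM in dKO, 0 to 0.0467 in rescue and 0 to 0.344 in WT, and Prm1, Prm2, Acrv1 and Akap4 had no count in any dKO library. Primitive endoderm markers summed to 53.8 to 73.9 CPM in dKO, 10.6 to 11.9 in rescue and 8.54 to 10.4 in WT, and all 6 of 8 that were tested rose in dKO. In rescue against dKO 4 of these 6 fell, and Sox17 (0.18) and Pdgfra (-0.39) were not called. Fibroblast markers summed to 58.9 to 64.9 CPM in dKO, 14.8 to 15.6 in rescue and 6.70 to 8.39 in WT, all 5 of 10 tested rising in dKO and falling in rescue against dKO, while Col3a1 and Lum were at 0 in every dKO library. The part of the primitive endoderm and fibroblast markers in the levels of the 10 genes was not tested.

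In the profiles of the 10 genes the dKO libraries stood above the rest. Pearson's r over the 9 libraries between the log2 level of each gene and the mean profile of the other 9 was 0.83 for Dazl, 0.88 for Mael and 0.95 to 0.997 for the others, highest for Piwil2. Spearman's rho, which weighs the gap between dKO and the rest less, was lower: 0.38 for Mael, 0.42 for Asz1, 0.50 for Tdrd1, 0.55 for Tdrd5 and at most 0.90, for Tdrkh. Across all tested genes apart from predicted ones, the profiles most like that of the 10 genes were those of Eif4e3, Tspan7, Pygl, Slc7a8, Sh3pxd2b, Tex101, AU022751 and Car4, with r between 0.9981 and 0.9995. Eif4e3 averaged 5.16 ± 0.58 CPM in dKO, 0.290 ± 0.012 in rescue and 0.417 ± 0.046 in WT (SD, n = 3 each). Slc7a8 averaged 73.4 ± 3.4 CPM in dKO, 11.3 ± 0.4 in rescue and 12.5 ± 1.0 in WT, and Car4 averaged 0.639 ± 0.040 CPM in dKO and had no count in rescue or WT. These r values are descriptions over libraries that fall into 3 groups, and ranking by Spearman's rho in place of Pearson's r named 8 different genes.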

How the data were processed

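RNA values are read counts per gene, whole numbers that the authors deposited without normalization. Per the submitters' processing notes, reads went through Trimmomatic, STAR 2.4.0 and HTSeq on mm10. Per the labels' protocols the TruSeq v2 kit was used, which does not mark strand, so a gene and an overlapping or antisense partner cannot be told apart. For the counting mode and the annotation, the sources used here give nothing. The Suz12 file holds other values, peak coordinates only as deposited by the authors (7480 peaks, no score), and no source used here names its peak caller.

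Of 71 samples, 61 were not used, all chromatin samples, 2 of which have labels that name different antibodies. Tables held 24222 genes and 0 entries that name no gene. Of these, 22859 were placed by symbol and 1230 by synonym in a GRCm38.p6 table, and 133 were not. Counts were fitted with edgeR 4.0.16 in R 4.3.3 (TMM, filterByExpr, robust glmQLFit and glmQLFTest), all 9 libraries in 1 fit with 6 residual degrees of freedom. The two-sided p-values were Benjamini-Hochberg adjusted over 14145 genes. SE is the unshrunk log2 fold change divided by the root of F. The 95% intervals use Student's t with those 6 degrees of freedom. The test uses more, so the intervals are wider than the test's own. The procedure was tested on simulated data. limma 3.58.1 (voom) and DESeq2 1.42.0 were alternatives, with other scalings, filters and samples.

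Replicates differed by more than sampling noise (chi-square per degree of freedom 2.15 to 22.6). The labels do not say whether replicates are separate cultures, and p-values therefore reflect only the spread among these libraries, possibly a technical one. Limits for counts of 0 (3 counts of the total) cover counting error only.

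Members and lists were chosen with earlier results of these data known. Named were all members, the targeted genes, up to 4 called genes with the smallest adjusted p and 1 not called with the largest fold change per list and comparison, and the 8 most alike genes. Spocd1 was not analysed here, and Tdrd6 did not pass the filter.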

Additional observations from a re-analysis of the deposited data

How the results depend on the processing

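In dKO against WT and in rescue against dKO, all 10 genes kept their direction and call under every alternative run, with 8 genes left under a mean of at least 2 CPM, since Tdrd9 and Asz1 then drop out. In rescue against WT between 4 and 7 passed, 4 to 6 with libraries left out in turn. There Piwil2 turned to 0.55 once the median of chromosome 14 was subtracted, by construction of that subtraction. Ddx4 ran from -0.027, without rescue replicate 1, to 0.086 with libraries left out in turn, and the cause was not tested. With total counts in place of TMM the median over all genes moved by 0.14 in dKO against WT and by -0.13 in rescue against dKO, and 5841 genes were called higher and 2984 lower in dKO, against 4769 and 4382 with TMM. In rescue against dKO that scaling called 3342 higher and 6381 lower, against 4534 and 5407. With peaks of at least the median width (1032 bases), 2 of the 10 genes, Ddx4 and Tdrd5, had a Suz12 peak at the start, and windows of 0 bases or 5 kb gave 4. Ranked by Spearman's rho, 0 of the 8 most alike genes were shared. With the replicate block, 10, 10 and 6 of the genes passed in dKO against WT, rescue against dKO and rescue against WT, and 9148, 9917 and 7612 of all genes. Same-numbered libraries correlated between -0.20 and 0.33, with signs that differed, so the numbers were not taken to pair the samples. Depth limits the genes under 1 CPM.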
